A study of Rattus norvegicus with 6 samples.

Results

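The genes described here encode the machinery of oxidative phosphorylation in rat Schwann cells, the glia of peripheral nerve. They were chosen by symbol alone, with names beginning Nduf, Uqcr, Cox4 to Cox8 or Atp5, together with Sdha to Sdhd and Cyc1, and 88 of the 17327 genes in the files met the rule. Of these, 34 encode subunits of complex I or a copy of one, 4 complex II, 9 complex III, 18 complex IV including tissue isoforms, and 16 complex V or a factor bound to it. The remaining 7 carry a matching name but encode assembly factors of complex I, and they are kept apart below. Subunits encoded in mitochondrial DNA fall outside the rule, and Ndufa3, Ndufa13, Ndufc1, Cox6b1 and Cox7a1 are not among the 88. Counts and sums per complex below cover only the genes that met the rule. The counts came from poly(A) RNA of primary cells taken from sciatic nerves of adult female Wistar rats. Cells were starved for 18 h in medium with 2% FBS and 10 μM forskolin, an agent that raises cAMP, and then received either 10 nM soluble NRG1β1 (NRG1) or the buffer in which it was dissolved (mock) for 6 h. Forskolin and low serum were present in both groups. Before starvation all cells had been grown with a ligand of the same family, given as glial growth factor in the labels and as NRG1β1 in the study's methods, so the mock group had been exposed to such a ligand as well and then deprived of it. There were 3 mock and 3 NRG1 samples from 3 independent cell preparations, here called cultures 1, 2 and 3, each with 1 sample per group.

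Complexes I to IV pass electrons from NADH and succinate to oxygen in the inner mitochondrial membrane, and complexes I, III and IV pump protons while they do so. Complex V, the ATP synthase, lets the protons back and makes ATP. Complex II is the only one of them that is also an enzyme of the citric acid cycle and that has no subunit encoded in mitochondrial DNA. Most subunits of the others are nuclear genes as well, with promoters known for binding sites of NRF-1 and of ETS factors such as GABP. Schwann cells use oxidative phosphorylation and glycolysis, and they support axons with metabolites.

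The total on genes ranged from 6821590 counts in mock sample 2 to 15475018 counts in NRG1 sample 3, and the 88 genes held between 0.662% and 0.954% of it. At this depth 3 counts, taken as the floor, corresponded to 0.194 to 0.444 CPM (counts per 1000000 gene counts, scaled with TMM). Of 11 Schwann cell markers all were detected, and their summed level ranged from 7295 to 18883 CPM in mock and from 5286 to 13826 CPM in NRG1 samples; 5 of them, S100b, Pmp22, Mbp and Cdh19 included, fell with NRG1. Both samples of culture 1 stood apart, since they also held the fibroblast markers Pdgfra at 870.1 and 827 CPM and Thy1 at 1268 and 1143 CPM, while the samples of cultures 2 and 3 had at most 1.61 CPM of Pdgfra and no count of Thy1. The 9 fibroblast markers summed to 54637 CPM in mock and 58955 CPM in NRG1 sample 1, and to between 13921 and 22735 CPM in the other 4 samples, in which Col1a1 made up most of it and mock sample 2 was the highest. Macrophage markers summed to at most 4.58 CPM, with Ptprc and Cd163 at 0 in every sample, and of 6 endothelial and perineurial markers, which summed to 56.5 to 64.5 CPM in mock and 64.4 to 102 CPM in NRG1 samples, Pecam1, Cdh5 and Cldn5 were at 0 as well. Most of that sum was the glucose transporter gene Slc2a1, which rose by 0.59 on the log2 scale (adjusted p = 0.0045), and Tek had 5.87 to 14.8 CPM. In such bulk RNA a smaller share of cells of a type and less RNA per cell cannot be told apart.

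NRG1 changed few of these genes. With edgeR's quasi-likelihood test and the culture as a block, 79 of the 88 genes passed the filter on low counts, and 4 rose and 1 fell at a Benjamini-Hochberg adjusted p of at most 0.01. The 4 were Uqcrc1 and Cyc1 of complex III, Cox5b of complex IV and Atp5d of complex V, and the gene that fell was Atp5s, a factor bound to complex V. The 5 genes are 6.33% of those tested, beside 11.8% of all 9740 genes tested that passed in either direction (6.31% rising and 5.51% falling). None of the 5 changed by 2-fold, whereas 3.47% of all genes passed the adjusted p with an absolute log2 fold change over 1. At an unadjusted p under 0.05 there were 19 of the 79, against 35.7% of all genes. No member of complexes I and II and no assembly factor passed the adjusted threshold.

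Changes as large as those of the genes that rose could go unseen in some of the other genes. The genes that rose changed by 1.41-fold (Cyc1) to 1.53-fold (Uqcrc1). The 95% interval of Atp5g3, which did not pass, reached 0.72 on the log2 scale. The standard error of the log2 fold change lay between 0.12 and 0.28 over the 79 genes, and the 95% interval stayed within a 2-fold change in 77 of them and within a 1.5-fold change in 58. The exceptions to the first were Atp5s and the assembly factor gene Ndufaf6. The forest plot of tested members sets the complexes side by side.

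**Figure D1:**
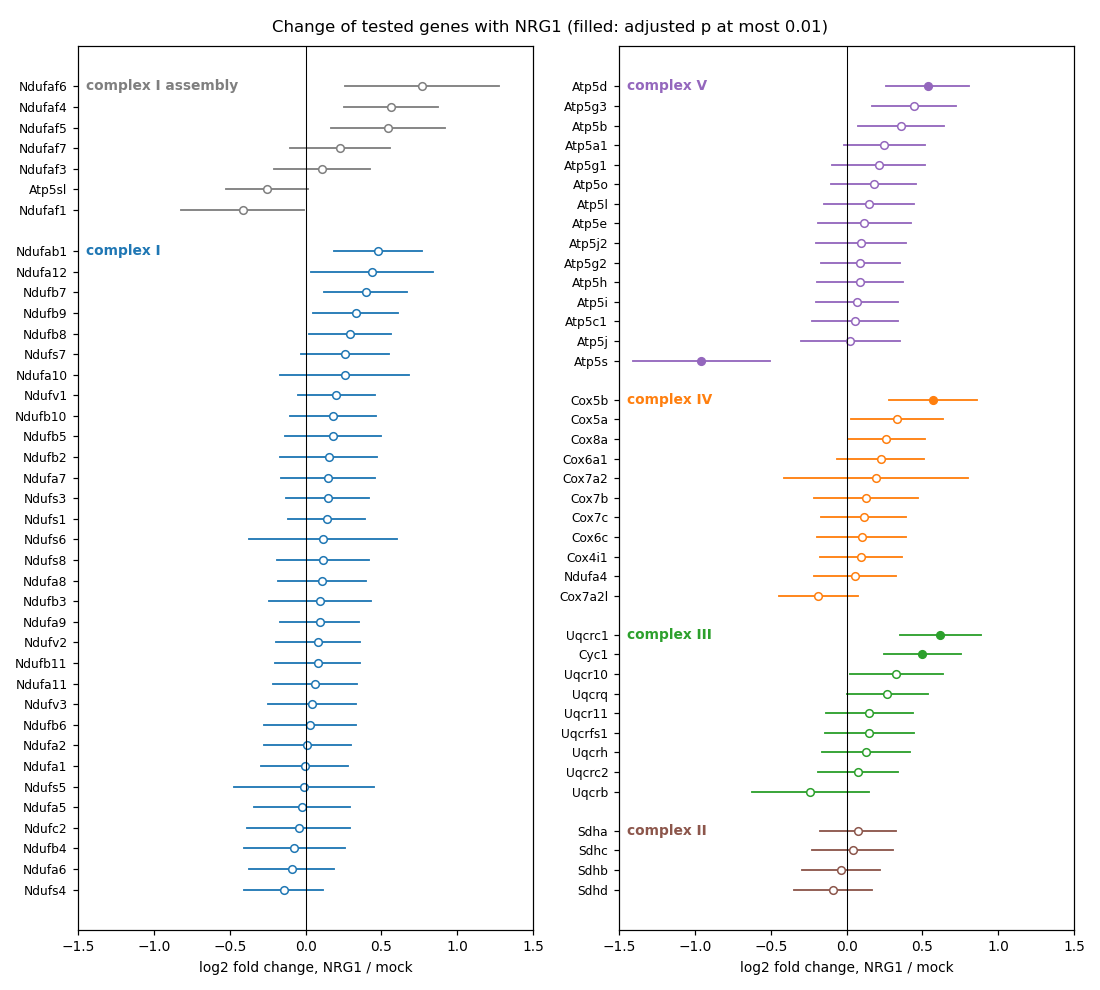
Log2 fold change (NRG1 over mock, x axis) of the tested genes, with the 95% interval as a line, grouped by complex; 1 gene of complex I is not drawn. Filled points are the 5 genes with an adjusted p of at most 0.01; complex II lies closest to 0, and Atp5s at -0.96 stands to the left of every other gene.

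The promoters of 4 of the 5 changed genes, read from RefSeq on the GRCr8 assembly, are printed because these are the genes that passed the test. Each line gives the 250 bases before the annotated start, 5′ to 3′ on the strand of the gene. Capitals mark TGCGCA, the core of the NRF-1 site, and CCGGAAG or its complement CTTCCGG, the core of an ETS site. The E-box CACGTG, bound by Myc, was searched as well. These motifs were chosen with the sequences in view, both strands were searched, and a match is only a run of letters.
Uqcrc1 (chr8:118467973-118468222, plus strand): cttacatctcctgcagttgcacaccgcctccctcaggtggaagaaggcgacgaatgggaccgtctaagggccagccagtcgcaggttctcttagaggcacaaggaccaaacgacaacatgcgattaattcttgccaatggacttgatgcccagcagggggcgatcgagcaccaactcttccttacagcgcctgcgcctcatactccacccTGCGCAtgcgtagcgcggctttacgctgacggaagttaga
Cox5b (chr9:46417587-46417836, plus strand): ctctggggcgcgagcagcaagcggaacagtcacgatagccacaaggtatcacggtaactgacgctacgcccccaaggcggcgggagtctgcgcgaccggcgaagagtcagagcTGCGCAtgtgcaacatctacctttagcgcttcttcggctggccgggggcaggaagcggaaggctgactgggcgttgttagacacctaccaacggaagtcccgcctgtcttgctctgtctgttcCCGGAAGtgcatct
Atp5d (chr7:10214351-10214600, minus strand): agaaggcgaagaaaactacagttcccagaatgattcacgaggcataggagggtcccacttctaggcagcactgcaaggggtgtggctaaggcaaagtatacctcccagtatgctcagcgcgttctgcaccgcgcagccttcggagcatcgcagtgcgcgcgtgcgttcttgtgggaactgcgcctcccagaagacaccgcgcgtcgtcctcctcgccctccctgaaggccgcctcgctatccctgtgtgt
Atp5s (chr6:93941448-93941697, plus strand): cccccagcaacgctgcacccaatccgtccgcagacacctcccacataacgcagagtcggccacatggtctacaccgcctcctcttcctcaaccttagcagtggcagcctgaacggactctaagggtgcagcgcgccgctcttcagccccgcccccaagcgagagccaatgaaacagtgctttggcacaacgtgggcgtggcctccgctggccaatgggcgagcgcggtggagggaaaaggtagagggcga
Uqcrc1 held 1 NRF-1 core, 40 bases before the start. Cox5b held an NRF-1 core 137 bases and an ETS core 14 bases before the start. None of the 3 motifs was found in these windows of Atp5d and Atp5s. Of all 88 genes, 74 had an entry in the promoter table, Cyc1 not among them. The NRF-1 core was present in 20 of the 74, or 27.0%, against 6.57% of 27457 promoters of all genes, and the ETS core in 19, or 25.7%, against 7.74%. The E-box occurred in 6 of the 74, 8.11% against 5.79%. The 27457 promoters take in genes that were not tested here, and the shares among tested genes were not computed. Complex II, in which no gene passed the test, had each of the NRF-1 and ETS cores in 2 of its 4 promoters.

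Complex III had the most genes past the test relative to its size, with 2 of 9 (22.2%, beside 11.8% of all genes tested). With so few genes the difference between complexes was not tested. Uqcrc1 encodes core protein 1, a large matrix-facing subunit related to mitochondrial processing peptidases. It was counted at 178, 238 and 302 CPM in mock samples 1, 2 and 3 and at 301, 388 and 397 CPM in NRG1 samples 1, 2 and 3. The NRG1 sample was the higher one in each culture, while across cultures mock sample 3 lay just above NRG1 sample 1. The log2 fold change was 0.62 (SE 0.12, adjusted p = 0.0029), from 239 ± 62.1 to 362 ± 53.0 CPM (SD, n = 3 per group), which is a 1.53-fold change. Its partner Uqcrc2, core protein 2, had 186, 183 and 175 CPM in mock and 170.4, 224 and 182 CPM in NRG1 samples, and its groups overlapped. Its log2 fold change was 0.07, with a 95% interval from -0.19 to 0.34 beside that of Uqcrc1 from 0.35 to 0.88; the difference between the 2 core proteins was not tested.

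Cyc1 encodes cytochrome c1, the haem protein that hands electrons to cytochrome c. Its levels were 97.8, 107 and 143 CPM in mock and 134, 169.8 and 187 CPM in NRG1 samples 1, 2 and 3. Every culture rose, by 0.45, 0.66 and 0.39 on the log2 scale, although the 2 groups overlapped across cultures. The log2 fold change was 0.50 (SE 0.12, adjusted p = 0.0080). Uqcrfs1, the Rieske iron-sulphur protein and the other redox subunit encoded in the nucleus, had a log2 fold change of 0.15 (95% interval from -0.15 to 0.44), and its ratio was above 0 in culture 2 only, at 0.56. Among the 5 small subunits Uqcr10 had the highest value, 0.33 (SE 0.14, adjusted p = 0.11), and Uqcrb, which binds ubiquinone, the lowest at -0.24 (adjusted p = 0.37).

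In complex IV, 11 of the 18 genes could be tested and 1 passed (9.09%, beside 11.8% of all genes tested). Cox5b encodes a zinc-binding subunit on the matrix side. It was counted at 102, 104 and 169 CPM in mock and at 159, 189.8 and 196 CPM in NRG1 samples 1, 2 and 3. The rise was smallest in culture 3, where the log2 ratio was 0.21, against 0.64 and 0.86 in cultures 1 and 2. The fitted log2 fold change was 0.57 (SE 0.14, adjusted p = 0.0082). With library size alone as scaling Cox5b narrowly did not pass, with an adjusted p of 0.0101 in the same edgeR test. Cox5a, the subunit that binds a thyroid hormone metabolite and pairs with Cox4, had 0.33 (SE 0.14, adjusted p = 0.10), with 0.76 in culture 2 and 0.15 and 0.09 in cultures 1 and 3.

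The other widely expressed subunits of complex IV moved little. Cox4i1, the common form of the largest nuclear-encoded subunit, had 222, 216 and 279 CPM in mock and 218, 279.5 and 267 CPM in NRG1 samples, which gave a log2 fold change of 0.09 (95% interval from -0.18 to 0.37). Cox6a1, the form found outside heart and muscle, had 161, 154 and 183 CPM in mock and 179, 228 and 178 CPM in NRG1 samples, with 0.22 (SE 0.13, adjusted p = 0.25). Cox8a had 92.7, 123 and 122 CPM in mock and 116, 160.5 and 130.5 CPM in NRG1 samples, with 0.26 (SE 0.12, adjusted p = 0.13). The groups of all 3 overlapped. Ndufa4, once assigned to complex I and now counted with complex IV, had 103, 124 and 115 CPM in mock and 103, 156 and 102 CPM in NRG1 samples. Its NRG1 and mock levels were equal to the third digit in culture 1, and the log2 fold change was 0.06 (95% interval from -0.21 to 0.32). Cox7a2l, which helps to join complexes III and IV into supercomplexes, was the only tested gene of complex IV with a negative value, -0.19 (SE 0.12, adjusted p = 0.30). It had 140.3, 129 and 135 CPM in mock and 129, 128 and 102 CPM in NRG1 samples, the NRG1 sample being the lower one in each culture.

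Most isoforms of complex IV typical of other tissues were at or near 0. Cox6b2 reached 2.36 CPM in NRG1 sample 2, and the related gene Ndufa4l2, described below, reached 18.4 CPM in NRG1 sample 1. Cox4i2, the form of lung and of oxygen-sensing cells, had 1 count in NRG1 sample 2 and none in the other 5 samples, and Cox6a2 of heart and muscle had at most 2 counts. Cox8b, Cox8c and the copy Cox6c-ps1 had no count in any sample. Cox6b2, known from testis, had 1, 6 and 10 counts in mock and 3, 21 and 26 counts in NRG1 samples 1, 2 and 3. It was the higher in NRG1 in each culture, yet these few counts kept it out of the main test, and with no low-count filter its log2 fold change was 1.21 (adjusted p = 0.11).

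Complex V had 15 of 16 genes tested, with 1 higher and 1 lower (13.3%, beside 11.8% of all genes tested). Atp5d encodes the delta subunit in the central stalk of the F1 part. Its levels were 91.0, 139 and 177 CPM in mock and 154, 209 and 214 CPM in NRG1 samples 1, 2 and 3. Each NRG1 sample was above its own mock sample, by 0.76, 0.59 and 0.27 on the log2 scale. The log2 fold change was 0.53 (SE 0.13, adjusted p = 0.0079). The catalytic subunit Atp5b had 872, 915 and 1073 CPM in mock and 1069, 1355 and 1246 CPM in NRG1 samples, and its log2 fold change of 0.36 (SE 0.13, adjusted p = 0.062) did not pass. Atp5a1 had 0.25 (adjusted p = 0.17), Atp5c1, the gamma subunit that turns within them, 0.05 (adjusted p = 0.80), and Atp5e 0.12 (adjusted p = 0.59).

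Atp5s encodes coupling factor B, a protein linked to ATP synthase assembly and function that is not counted among its core subunits. It was weakly expressed, at 13.0, 8.43 and 8.27 CPM in mock and 6.27, 5.39 and 3.74 CPM in NRG1 samples 1, 2 and 3. All 3 NRG1 samples lay below all 3 mock samples. The log2 fold change of -0.96 (SE 0.21, adjusted p = 0.0052) corresponds to a level 0.515 times that of mock. With DESeq2 the adjusted p of Atp5s was 0.042, while the 4 genes that rose passed there too, with adjusted p from 7.3e-05 to 0.0032. These 4 were 5% of the 80 members tested with DESeq2, beside 5.77% of all genes that rose.

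The c-ring of complex V is encoded by Atp5g1, Atp5g2 and Atp5g3, whose mature proteins are the same. Atp5g3 had 128, 168 and 189.6 CPM in mock and 158, 285 and 228 CPM in NRG1 samples, and it was higher with NRG1 in each culture. Its log2 fold change was 0.44 (SE 0.13, adjusted p = 0.024), which did not pass. Atp5g1 had 34.9, 38.3 and 36.2 CPM in mock and 36.5, 57.0 and 36.2 CPM in NRG1 samples, with 0.21 (95% interval from -0.10 to 0.52). Atp5g2 had 168, 183 and 161 CPM in mock and 178, 225 and 150.3 CPM in NRG1 samples, with 0.09 (95% interval from -0.17 to 0.35). In both the groups overlapped, and the highest level was that of NRG1 sample 2. The 3 tested stalk genes Atp5h, Atp5j and Atp5o lay between 0.03 and 0.18, and the small membrane subunits Atp5i, Atp5j2 and Atp5l between 0.07 and 0.15. The fourth stalk gene, Atp5f1, had 7, 0 and 2 counts in mock and 0, 8 and 1 counts in NRG1 samples, so it was not tested.

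**Figure D2:**
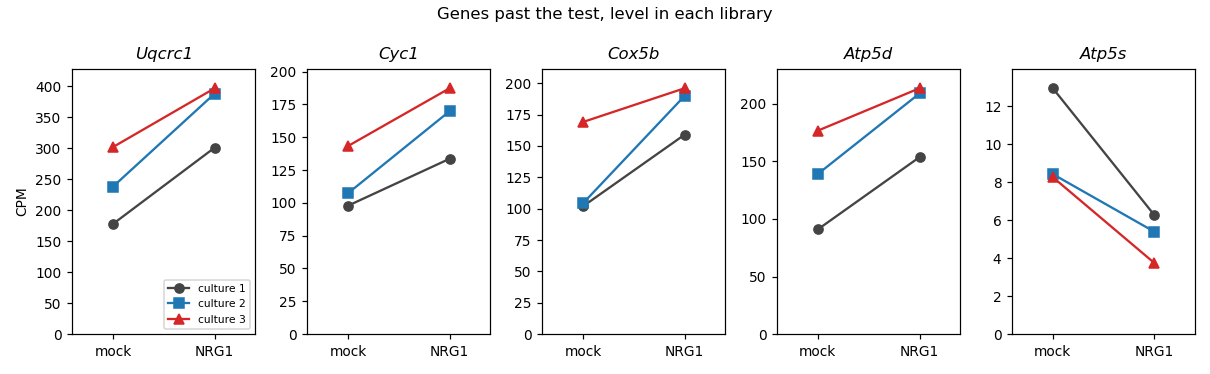
Level in CPM (y axis from 0) of the 5 genes with an adjusted p of at most 0.01, in mock and NRG1 samples, with a line joining both samples of each culture. The lines of Uqcrc1, Cyc1, Cox5b and Atp5d rise and those of Atp5s fall in all 3 cultures.

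Complex I, the largest, had 33 of its 34 genes tested and none past the threshold. Of the 33, 5 had an unadjusted p under 0.05, beside 35.7% of all genes tested. The log2 fold changes ran from -0.15 for Ndufs4 to 0.48 for Ndufab1. All 33 intervals stayed within a 2-fold change, and 27 within a 1.5-fold change. The 7 core subunits of the nuclear genome, which carry the flavin and the iron-sulphur clusters or line the path to ubiquinone, were all slightly positive, from 0.08 for Ndufv2 to 0.26 for Ndufs7.

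The gene of complex I with the smallest p was Ndufab1, which encodes the mitochondrial acyl carrier protein and so also serves fatty acid and lipoate synthesis outside the complex. It had 34.9, 40.4 and 39.4 CPM in mock and 45.2, 69.2 and 48.2 CPM in NRG1 samples 1, 2 and 3, with no overlap between the groups. The log2 fold change was 0.48 (SE 0.14, adjusted p = 0.021). Ndufa10l1, a copy of Ndufa10, had no count in any sample. With DESeq2 no gene of complex I passed either, beside 9.66% of all genes.

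Complex II had the smallest median of the 5 complexes, and none of its 4 genes passed. Sdha, the flavoprotein that oxidizes succinate, had 159, 166 and 203 CPM in mock and 169, 185 and 200.1 CPM in NRG1 samples 1, 2 and 3, a log2 fold change of 0.07 (95% interval from -0.17 to 0.32). Sdhb, the iron-sulphur subunit, had 96.2, 116 and 131 CPM in mock and 96.4, 127 and 112 CPM in NRG1 samples, which gave a log2 fold change of -0.04 (95% interval from -0.29 to 0.22). The levels of both groups overlapped throughout. The membrane anchor Sdhc had 157, 139 and 185 CPM in mock and 158, 168 and 166 CPM in NRG1 samples, with 0.04 (95% interval from -0.22 to 0.30). The second anchor, Sdhd, had 74.0, 75.0 and 81.5 CPM in mock and 66.4, 81.0 and 70.0 CPM in NRG1 samples, with -0.09 (95% interval from -0.35 to 0.17). None of the 4 had an unadjusted p under 0.05, beside 35.7% of all genes, and DESeq2 called none, beside 9.66% of all genes.

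Of the 7 assembly factor genes 4 had an unadjusted p under 0.05, beside 35.7% of all genes tested. None passed after adjustment, and DESeq2 called none, beside 9.66% of all genes. Ndufaf4 had 20.8, 19.2 and 16.9 CPM in mock and 29.1, 33.0 and 22.9 CPM in NRG1 samples 1, 2 and 3, with no overlap and a log2 fold change of 0.56 (SE 0.15, adjusted p = 0.012). Ndufaf5, which hydroxylates an arginine of the core subunit Ndufs7, had 0.54 (SE 0.18, adjusted p = 0.038) and Ndufaf6 0.77 (SE 0.24, adjusted p = 0.031). Ndufaf1 and Atp5sl, the latter an assembly factor of the membrane arm in spite of its name, had negative values, -0.41 (adjusted p = 0.13) and -0.26 (adjusted p = 0.16). Both were lower with NRG1 in all 3 cultures.

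The complexes were then contrasted by their medians and by the summed level of their genes, which are descriptions with no test, since genes of a complex are not replicates. The median log2 fold change was 0.15 in complex III, 0.13 in complex IV, 0.12 in complexes I and V and 0.00 in complex II, against -0.03 over all genes tested. Over all 79 genes the median was 0.12, with 65 positive and 14 negative values. The summed level of complex III rose from 846, 902 and 1064 CPM in mock to 1005, 1299.9 and 1192 CPM in NRG1 samples 1, 2 and 3, a mean log2 ratio of 0.31 ± 0.19 (SD, 3 pairs). For complex V the sums were 2443, 2566 and 2877 CPM in mock and 2767, 3665 and 3116 CPM in NRG1 samples, a mean log2 ratio of 0.27 ± 0.21 (SD, 3 pairs). In both complexes the NRG1 sum was the higher one in every culture. Without Uqcrc1 and Cyc1, a choice made after seeing the data, the sum of the other 7 genes of complex III was 570.1, 556 and 618 CPM in mock and 570.5, 742 and 608 CPM in NRG1 samples, with log2 ratios of 0.00, 0.41 and -0.02 in cultures 1, 2 and 3, and the mean log2 ratio was 0.13 ± 0.25 (SD, 3 pairs). For complex V without Atp5d and Atp5s the mean log2 ratio was 0.26 ± 0.22 (SD, 3 pairs), higher in each culture. That sum was 2339, 2418 and 2692 CPM in mock samples 1, 2 and 3. Of it Atp5b held 872, 915 and 1073 CPM and Atp5a1 437, 466 and 566 CPM. In culture 3 only 5 of the 15 tested genes of complex V had a log2 ratio above 0, with a median of -0.04. Complexes I and IV, with mean log2 ratios of 0.14 ± 0.22 and 0.17 ± 0.26 (SD, 3 pairs), were higher in cultures 1 and 2 and slightly lower in culture 3. Complex II had 486, 497 and 600.5 CPM in mock and 489, 562 and 549 CPM in NRG1 samples, with 0.02 ± 0.15 (SD, 3 pairs). Except for complexes III and V the mean was smaller than the SD over the cultures. Without culture 2 the means were 0.21 for complex III, 0.15 for complex V, 0.03 for complex IV, 0.02 for complex I and -0.06 for complex II.

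The size of these ratios depended on the culture. In culture 2 the log2 ratio was above 0 in 75 of the 79 genes, with a median of 0.42, while all genes tested had a median of -0.03 there. In culture 1 there were 49 genes above 0 and a median of 0.08, and in culture 3 there were 29 and a median of -0.08. The medians of complexes III, IV and V in culture 2 were 0.51, 0.41 and 0.50, and that of complex II was 0.14. Only 25 of the 79 genes (31.6%) were higher with NRG1 in all 3 cultures, beside 25.9% of all genes, and 4 were lower in all 3, beside 30% of all genes. Without culture 2 the medians turned to -0.04 in complexes I and IV and to -0.03 in complex V, and stayed positive only in complex III, at 0.07, among the 5 complexes. Each culture gave a single pair, so the difference between cultures in the response to NRG1 was not tested. Other measures differed between the 2 samples of a culture as well. In culture 2 the fibroblast list fell from 22735 to 13921 CPM with NRG1, with Col1a1 at 21494 and 13413 CPM and Col3a1 at 838 and 279 CPM, while in culture 3 Col3a1 had 442 and 170 CPM and Col1a1 13620.2 and 13754 CPM. The share of alignments with more than 1 place was higher with NRG1 by 1.95, 2.74 and 1.17 percentage points in cultures 1, 2 and 3, and the share outside genes was lower by 2.35, 3.26 and 0.584 points. Both shifts were largest in culture 2, and their part in the members' ratios was not tested.

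**Figure D3:**
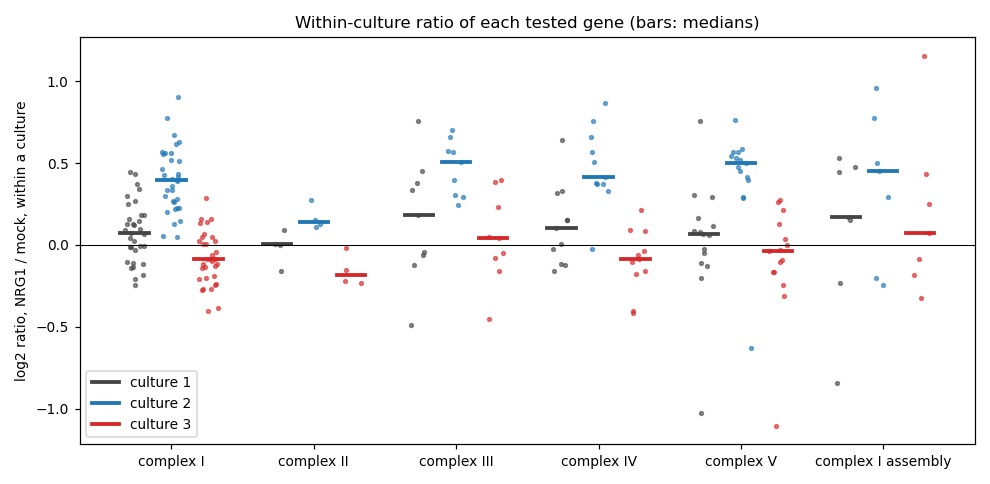
Log2 ratio of NRG1 to mock within each culture (y axis) for every tested gene, by complex, with points for genes and bars for medians. The points of culture 2 lie above 0 in 75 of 79 genes, while those of cultures 1 and 3 scatter around 0; complex II has the lowest medians of culture 2 at 0.14 and of culture 3 at -0.19.

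Most of the calls were lost when a culture was left out, while their log2 fold changes stayed within 1.5 times the values over all cultures. Without culture 1, the one with high Pdgfra and Thy1, none of the 5 genes passed, although 12% of 9926 genes tested were called. At an unadjusted p under 0.05 in edgeR 15 members were higher and 1 lower, or 20% of 80, beside 30.1% of all genes. Their log2 fold changes were then 0.55 for Uqcrc1, 0.52 for Cyc1, 0.54 for Cox5b, 0.43 for Atp5d and -0.91 for Atp5s and kept their sign. Without culture 2 Uqcrc1 and Atp5s passed, beside 8.86% of all genes, while Cyc1 and Cox5b had 0.42 and Atp5d 0.51. Without culture 3 Uqcrc1, Cox5b and Atp5d passed, beside 6.51% of all genes, while Cyc1 had 0.58 and Atp5s -0.83. Leaving out the block, which the paired cultures call for, left none of the 9740 genes past the threshold (7.59% of members and 13.7% of all genes had an unadjusted p under 0.05), and the adjusted p was then 0.35 for Uqcrc1, 0.36 for Cyc1, 0.39 for Cox5b, 0.48 for Atp5d and 0.28 for Atp5s.

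Between the cultures, whatever the treatment, fewer of these genes were called than of all genes. The same fit called 3 of the 79 at an adjusted p of at most 0.01, which is 3.80%, while 23.4% of all genes tested were called. The count was 5 of 80 with DESeq2, beside 22.4% of all genes, and 12 of 84 with no low-count filter, beside 27% of all genes. The 3 were Cox7a2, Ndufb3 and Atp5d. Cox7a2, the common form of a small complex IV subunit, had 4.41 and 5.60 CPM in mock and NRG1 sample 1, 5.33 and 6.97 CPM in those of culture 2, and 1.10 and 0.775 CPM in those of culture 3 (adjusted p = 8.5e-05 for the cultures). Culture 3 was thus the low one. Ndufb3, an accessory subunit of complex I, was lowest in culture 3 as well, with 21.4, 17.0 and 11.3 CPM in mock and 22.5, 20.7 and 10.8 CPM in NRG1 samples (adjusted p = 0.0023). Atp5d was lowest in culture 1 in both groups (adjusted p = 0.0062). In complexes II and III the smallest adjusted p for the cultures were 0.13, for Sdhb, and 0.021, for Uqcrc1, and among the assembly factors 0.17, for Ndufaf6.

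Ndufa4l2 showed the sharpest contrast between cultures. It is related to Ndufa4 and known as a hypoxia-inducible gene of pericytes and smooth muscle. It had 114 and 138 counts in mock and NRG1 sample 1, or 15.2 and 18.4 CPM, against 0, 1, 2 and 2 counts in the samples of cultures 2 and 3. Since it was expressed in a single culture it did not pass the main filter, and its difference between cultures had an adjusted p of 7.5e-33 in edgeR with no low-count filter and 9.8e-33 in DESeq2. The fibroblast markers Pdgfra and Thy1 were high in the same 2 samples, and their part in the level of Ndufa4l2 was not tested. NRG1 made no difference to it past the test, with a log2 fold change of 0.38 (adjusted p = 0.55) in edgeR with no low-count filter.

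**Figure D4:**
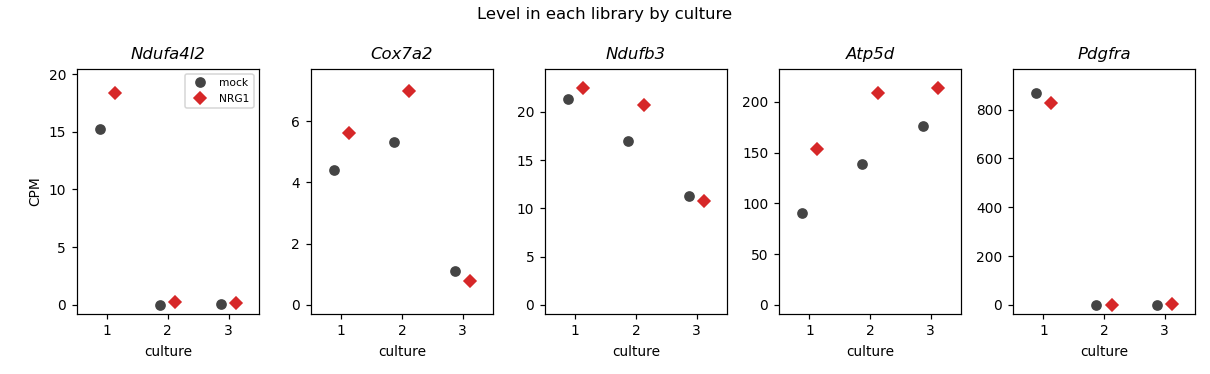
Level in CPM (y axis) of Ndufa4l2, Cox7a2, Ndufb3, Atp5d and the fibroblast marker Pdgfra in mock (circles) and NRG1 (diamonds) samples of cultures 1, 2 and 3 (x axis). Ndufa4l2 and Pdgfra are high in culture 1 and near 0 in the others, Cox7a2 and Ndufb3 are lowest in culture 3 and Atp5d in culture 1.

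Other mitochondrial genes around the respiratory chain were called at 3.03% among assembly factors of other names, 5.26% in pyruvate dehydrogenase and the citric acid cycle, 11.8% among carriers and 12.5% among biogenesis regulators, beside 11.8% of all genes. Of 33 tested assembly factors of other names 1 fell and none rose, with a median log2 fold change of 0.07. The gene was Nubpl, which delivers iron-sulphur clusters to complex I, with 12.2, 10.5 and 9.22 CPM in mock and 6.13, 7.19 and 3.42 CPM in NRG1 samples and a log2 fold change of -0.99 (SE 0.22, adjusted p = 0.0054). The call was lost with DESeq2 (adjusted p = 0.032) and without culture 3 (adjusted p = 0.098). Lrpprc, needed for the stability of mitochondrial mRNA, had 0.44 (adjusted p = 0.015). Of 17 genes for mobile carriers and ATP export 1 rose and 1 fell. Slc25a5, which exchanges ADP for ATP across the inner membrane, rose from 91.5, 150.2 and 119 CPM to 139, 257 and 150.0 CPM, a log2 fold change of 0.57 (SE 0.12, adjusted p = 0.0048). It did not pass without culture 1 or without culture 2, with adjusted p of 0.014 and 0.016. Adck3, needed to make ubiquinone, fell from 15.0, 10.8 and 14.1 CPM to 7.07, 2.70 and 3.16 CPM, with -1.73 (SE 0.24, adjusted p = 0.00019), the largest change among all genes named here. Cytochrome c itself, Cycs, had 0.43 (SE 0.18, adjusted p = 0.11).

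Among 19 genes of pyruvate dehydrogenase and the citric acid cycle, Mdh2, the mitochondrial malate dehydrogenase, rose from 149, 180 and 248 CPM to 212, 304 and 309 CPM, by 0.52 on the log2 scale (SE 0.13, adjusted p = 0.0082) and no other gene passed, with a median of 0.07. The call of Mdh2 was lost when any 1 culture was left out, with adjusted p from 0.012 to 0.028, and with library size alone as scaling, at 0.01002. Among 16 regulators of mitochondrial biogenesis 2 rose and none fell. Pprc1, a coactivator of the PGC-1 family that responds to serum, rose from 43.4, 46.2 and 36.6 CPM in mock to 80.5, 76.0 and 78.5 CPM in NRG1 samples 1, 2 and 3. The groups did not overlap, and the log2 fold change was 0.91 (SE 0.13, adjusted p = 0.00020). Polg, the mitochondrial DNA polymerase, rose from 47.7, 47.1 and 52.2 CPM to 76.4, 65.5 and 77.4 CPM, by 0.58 on the log2 scale (SE 0.12, adjusted p = 0.0036), and did not pass without culture 1 or without culture 3, with adjusted p of 0.027 and 0.023. Ppargc1a, the founding member of the PGC-1 family, was weakly expressed, with 4.68, 1.92 and 2.68 CPM in mock and 3.73, 1.01 and 1.03 CPM in NRG1 samples, and -0.82 (SE 0.33, adjusted p = 0.083). The factors whose motifs are printed above had 0.30 (adjusted p = 0.18) for Nrf1 and -0.10 (adjusted p = 0.59) for Gabpa.

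The counting leaves some levels uncertain. Alignments with more than 1 place in the genome were given to no gene, and they made up 24.5% to 29.9% of each file. Many of these genes are known to have processed pseudogenes. The part of such alignments in the low counts of Atp5f1 and Cox7a2, both used by most tissues, was not tested.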

How the data were processed

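Total RNA of 3 mock and 3 NRG1 samples was poly(A) selected, prepared with the TruSeq RNA kit and sequenced. Per the labels and the study's methods, the authors mapped the reads to rn5 with TopHat 2.0.10, counted them with HTSeq on RefSeq genes (version not given in the sources used here) and deposited raw counts without normalization, which are the unit used here. The 5 htseq summary lines, 50.1% to 53.0% of alignments, stayed out of library sizes and tests. Total counts on genes ranged from 6821590 to 15475018 per sample, and the floor covers counting error only. Whether libraries were counted by strand is not given in the sources used here, so overlapping antisense genes cannot be told apart.

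Differential expression used edgeR 4.0.16 in R 4.3.3 on all genes passing filterByExpr (minimum count 10), which kept 9740 and removed 7587, with TMM scaling and the culture as a block; the study itself used DESeq2 with the replicate as covariate. P-values were Benjamini-Hochberg adjusted over all genes tested and called at 0.01. Differences between cultures were the F-test on both block terms. Intervals are 95% intervals from the standard error (log2 fold change over the square root of F). Ratios within cultures used log2 CPM with a prior count of 2. Deviations from the group means correlated with r of 0.91, 0.67 and 0.81 across genes for samples of the same number, which the study's methods tie to independent cell preparations, and with -0.80 to 0.51 otherwise. Deviations from a mean of 3 samples sum to 0, which by itself lowers the correlations of unmatched samples. Between cultures 2 and 3 the unmatched r was 0.51, so these values separate mainly culture 1. No pair of samples agreed within sampling noise.

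Scripts were tested on simulated counts. Alternatives were DESeq2 1.42.0 with the block, other scalings and filters, no block and leaving out each culture; the settings for summed levels (sums without the changed members included) and related genes were added after the data were seen. The members, lists and tests were chosen with earlier results of these data known. Samples were named for their group and replicate from the labels. Genes named are those past the test (at most 12 per complex), the one with the smallest p where none passed, tissue isoforms, all of complex II, the member of each complex differing most between cultures, and up to 4 called genes per related list; Uqcrc2, Uqcrfs1, Uqcr10, Uqcrb, Cox5a, further genes of complexes I and V, the assembly factors and the uncalled genes of the related lists were added after their values were seen. No gene lengths of the build were used, so levels are not adjusted for length. Summed levels, a gene's share of a sum and remarks on weak expression carry that limit. Values of 1 member and 1 marker are not reported here.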

Additional observations from a re-analysis of the deposited data

How the results depend on the processing

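Direction held for each of the 5 changed genes under every alternative run, and the other scalings and the filter of at least 10 counts in every sample left 3 or 4 members rising and 1 falling. Members rising were then 3.8% to 5.06% of those tested, beside 5.99% to 6.83% of all genes, and 5.6% to 6.76% of all genes fell. With no replicate block no member and no related gene rose or fell (5 members were higher and 1 lower at an unadjusted p under 0.05), and the smallest adjusted p of a member was 0.28; the pairing comes from shared cell preparations. DESeq2 left 0 members and 1 related gene falling, beside 3.89% of all genes, and called 5 members between cultures (6.25% beside 22.4% of all genes). No low-count filter gave 12 members called between cultures (14.3% beside 27% of all genes). It left 6 members rising (7.14% beside 6.46%), with Ndufab1 and Ndufaf4 added. At an adjusted p of at most 0.05, 10 members rose (12.7% beside 11.5% of all genes). At an adjusted p of at most 0.01 with an absolute log2 fold change over 1, 0 rose and 0 fell. Leaving out cultures 1, 2 and 3 in turn gave 0 to 3 members rising and 0 to 1 falling, and 2 related genes rising in each case with 1 to 2 falling. The members rising were 0%, 1.25% and 3.75% of those tested, beside 5.94%, 5.07% and 4.02% of all genes. Of all genes 6.05%, 3.79% and 2.49% fell. Mdh2 passed in none of these fits, Slc25a5 only without culture 3 and Polg only without culture 2, and Nubpl was lost without culture 3. In the same fits the sign changed for uncalled genes near 0. Log2 fold changes ran from -0.0085 to 0.211 for Atp5g2, -0.0397 to 0.196 for Cox4i1, -0.0784 to 0.190 for Ndufa4, -0.116 to 0.0888 for Sdhb, -0.0725 to 0.161 for Sdhc and -0.187 to 0.00013 for Sdhd, each lowest without culture 2 and highest without culture 3. The cause of these shifts was not tested. Depth limits Cox4i2 and Cox6a2, which had at most 2 counts.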
